A study of Mus musculus with 6 samples.

Results

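The insulin-like growth factor (IGF) genes described here are the ligands Igf1 and Igf2, the receptors Igf1r and Igf2r, and the binding proteins Igfbp2, Igfbp3, Igfbp4, Igfbp5, Igfbp6 and Igfbp7. These 10 genes were chosen by symbol, out of 19321 named genes on the array, and each had 1 probe. They were measured on 6 single-colour arrays in cells sorted from the hind limb muscles of C57BL/6 mice that were young (8 to 10 weeks) or aged (24 to 28 months). At each age there was 1 array of PDGFRa+ mesenchymal progenitors, which lie between the muscle fibres, 1 of satellite cells, the muscle stem cells, and 1 of a mixed sort of CD31+ or CD45+ cells, which are endothelial or hematopoietic. No treatment or mutation is named in the labels. Cells of repeated sorts were pooled for each array, and the number and sex of the mice are not given in the sources used here. No group had a replicate array, so a p-value below measures only the spread between these arrays, after a shared age difference was taken out.

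IGF-I and IGF-II are secreted peptides that signal through the Igf1r tyrosine kinase to Irs adaptors, PI3-kinase and Akt, which promotes growth and restrains FoxO transcription factors. Igf2r, the cation-independent mannose 6-phosphate receptor, takes IGF-II into the cell for degradation. The binding proteins hold IGFs in the matrix or the circulation, extend their life, block or deliver them, and are cut by extracellular proteases. In muscle, IGF-I is known for fibre growth and for its action on satellite cells, and IGF-II for its part in myoblast differentiation.

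All 10 genes were above background on all 6 arrays, and 88.4 to 92.3% of probes were above background on each array. The young and aged arrays of a cell type correlated across genes at r = 0.985 to 0.992, and those of unlike cell types at 0.843 to 0.929. For each sort, 1 marker gene matched the label. Pdgfra read 4149 and 5700.4 in PDGFRa+ cells and at most 60.6 elsewhere. Pax7 read 1055 and 1361.6 in satellite cells and at most 10.6 elsewhere, and Pecam1 (CD31) read 2450.7 and 2464.8 in the mixed sort and at most 50.1 elsewhere. The wider marker lists were less exclusive. The mesenchymal progenitor list (9 genes) summed to 122717 (young) and 100368 (aged) in PDGFRa+ cells, but also to 15739 and 19709.1 in satellite cells. The pericyte and smooth muscle list (8 genes) summed highest in the mixed sort, at 11095.5 and 13679.5. The satellite cell list summed to at most 968.7 outside satellite cells, and the endothelial list to at most 865 outside the mixed sort. The file headers name no scanner set, so 2 sets were inferred from a gain slope given there. Set A (young PDGFRa+, young satellite and aged PDGFRa+ arrays) had slopes of 0.465 to 0.466, and set B (the other 3 arrays) of 0.477 to 0.478. In the satellite pair the scanner set and age therefore cannot be told apart, and no PDGFRa+ array shares a set with an array of the mixed sort.

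The promoters of 4 members are shown because these genes marked the cell types most strongly: Igf1 and Igfbp6 were brightest in PDGFRa+ cells, and Igfbp3 and Igfbp7 were bright in PDGFRa+ cells and in the mixed sort but dim in satellite cells. Each run is the 250 bases before the gene's start in RefSeq (GRCm38.p6), 5′ to 3′ on the gene's strand. Capitals mark matches to the letters of a TATA box (TATAAA), to those of a GC box (GGGCGG) and to those of a CCAAT box (CCAAT), searched on both strands. No match shown overlaps another.
Igf1, chr10:87860861-87861110, plus strand: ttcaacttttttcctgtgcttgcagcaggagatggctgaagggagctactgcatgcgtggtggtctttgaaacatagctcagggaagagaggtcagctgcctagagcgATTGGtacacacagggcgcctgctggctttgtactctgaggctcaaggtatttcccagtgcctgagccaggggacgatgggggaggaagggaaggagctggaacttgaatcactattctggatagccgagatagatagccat
Igfbp6, chr15:102143936-102144185, plus strand: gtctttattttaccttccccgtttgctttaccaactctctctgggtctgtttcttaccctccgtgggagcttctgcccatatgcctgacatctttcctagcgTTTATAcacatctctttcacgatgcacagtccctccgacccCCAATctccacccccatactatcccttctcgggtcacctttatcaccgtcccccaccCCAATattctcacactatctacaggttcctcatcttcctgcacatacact
Igfbp3, chr11:7213924-7214173, minus strand: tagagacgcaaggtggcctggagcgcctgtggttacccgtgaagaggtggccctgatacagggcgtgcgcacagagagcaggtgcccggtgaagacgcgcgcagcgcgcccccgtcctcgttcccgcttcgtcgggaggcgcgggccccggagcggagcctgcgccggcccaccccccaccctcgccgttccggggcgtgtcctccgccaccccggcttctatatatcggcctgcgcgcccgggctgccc
Igfbp7, chr5:77408046-77408295, minus strand: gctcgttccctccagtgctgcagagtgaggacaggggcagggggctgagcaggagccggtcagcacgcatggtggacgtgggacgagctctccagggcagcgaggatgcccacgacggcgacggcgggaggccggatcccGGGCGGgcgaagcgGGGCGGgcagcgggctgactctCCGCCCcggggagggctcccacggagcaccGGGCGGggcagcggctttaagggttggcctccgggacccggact
The Igf1 window held 1 CCAAT, on the opposite strand and 142 bases before the start. The Igfbp6 window held CCAAT 107 and 50 bases before the start and TATAAA on the opposite strand at 148. No match was found in the Igfbp3 window, while that of Igfbp7 held GGGCGG 4 times, 1 of them on the opposite strand at 74 bases before the start. Of 32851 promoters of this length, 12.4% held TATAAA, 32.7% GGGCGG and 33.8% CCAAT at least 1 time, so holding a match is not rare. How often a promoter holds several was not counted. The GC content was 52.8% for Igf1 and 49.6% for Igfbp6, near the median of 52.4% over all promoters, against 73.2% for Igfbp3 and 74.0% for Igfbp7. These are descriptions of the letters, not of binding sites.

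The members did not all have their highest mean in the same sort. By mean level, PDGFRa+ cells had the highest Igf1, Igfbp4, Igfbp5 and Igfbp6, the mixed sort had the highest Igf2, Igfbp3 and Igfbp7, and satellite cells had the highest Igf1r and Igf2r. Differences between cell types are log2 differences from a limma model with cell type and age, in which each cell type had 2 arrays. A gene was called at an adjusted p under 0.05 and at least 2-fold. By this rule only Igf1 and Igfbp6 were called higher in their brightest sort than in both other sorts. Intensities are in the authors' units, in which every array has a median of 25. The offset of 50 used in the fit shrinks the log2 differences of dim genes below what intensities imply.

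Between PDGFRa+ and satellite cells, 3 of the 10 members were called higher in PDGFRa+ cells, against 4.09% of the 18372 genes tested, and 1 was called lower, against 3.20%. Between PDGFRa+ cells and the mixed sort, 4 were called higher in PDGFRa+ cells (4.70% of all genes) and 1 lower (5.40%). Between satellite cells and the mixed sort, 0 were called higher in satellite cells (5.12% of all genes) and 2 lower (6.57%). In these 3 comparisons 8, 8 and 7 of the 10 members had an unadjusted p under 0.05 in limma, in either direction. So had 7012, 7454 and 8307 of the 18372 genes tested. The members' median log2 difference was 0.74, 0.28 and 0.34 in these comparisons, against -0.01, 0.01 and 0.02 for all genes tested. In bulk RNA of a sort, fewer cells of a type and less RNA per cell cannot be told apart.

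**Figure D1:**
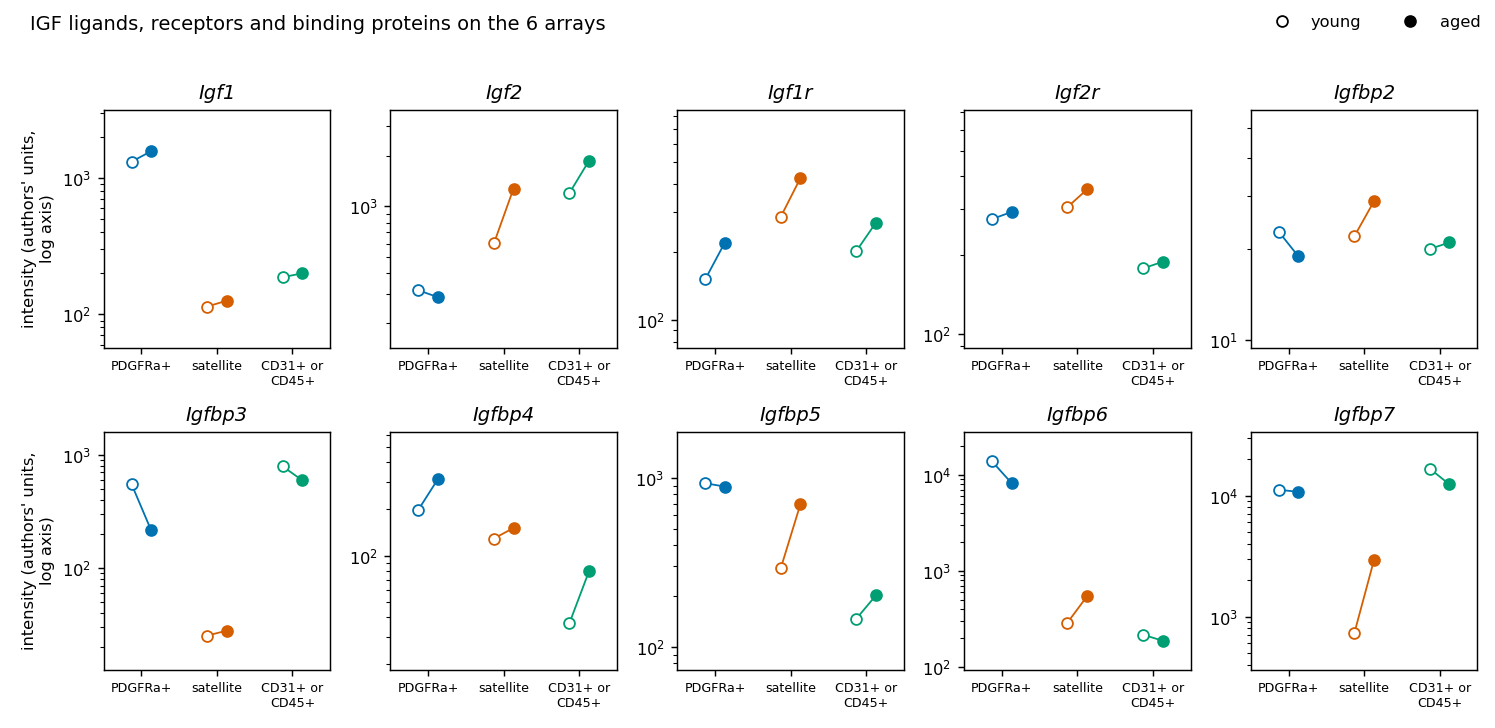
Intensity of the 10 IGF genes (authors' units, log axis, a separate scale in each panel) by sorted cell type, with open circles for young and filled circles for aged arrays, 1 array each. Igf1 and Igfbp6 stand highest in PDGFRa+ cells at both ages, Igfbp3 lies between 25.3 and 28 in satellite cells, and Igfbp7 is 726.4 in young and 2917.5 in aged satellite cells.

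Igf1, the growth factor made locally in muscle as well as in liver, was highest in mesenchymal progenitors. It measured 1316.7 (young) and 1573.2 (aged) in PDGFRa+ cells, 113.9 and 125.8 in satellite cells, and 186.7 and 200.1 in the mixed sort. The PDGFRa+ values did not overlap with the others. The difference was 3.13 (SE 0.08, 95% confidence interval 2.90 to 3.36, adjusted p = 0.00392), or 8.77-fold, against satellite cells. It was 2.61 (SE 0.08, adjusted p = 0.00146), or 6.11-fold, against the mixed sort. Satellite cells were lower than the mixed sort by a difference under 2-fold (-0.52, SE 0.08, adjusted p = 0.0188). The young PDGFRa+ and satellite arrays, which share a scanner set, differed by 3.03.

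Igf2, the ligand expressed mainly before birth in rodents, had the opposite order. It measured 315.4 (young) and 287 (aged) in PDGFRa+ cells, 601.1 and 1278.1 in satellite cells, and 1201.9 and 1877.4 in the mixed sort. PDGFRa+ cells were lowest at both ages, and the aged satellite value lay between the values of the mixed sort. PDGFRa+ cells were lower by -1.53 against satellite cells (SE 0.31, adjusted p = 0.0463) and by -2.27 against the mixed sort (SE 0.31, adjusted p = 0.018). The satellite cells and the mixed sort did not differ beyond the spread (-0.74, 95% confidence interval -1.65 to 0.17, adjusted p = 0.166). With the scanner set as a block, neither Igf2 call held (-1.14, adjusted p = 0.131, and -1.49, adjusted p = 0.211). Within set A, the young PDGFRa+ array was lower than the young satellite array by -0.96.

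The receptors varied less than the ligands. Igf1r, the signalling receptor, measured 151.1 (young) and 219.7 (aged) in PDGFRa+ cells, 285.6 and 423.4 in satellite cells, and 201.5 and 269.5 in the mixed sort. At each age the order was satellite cells, mixed sort, PDGFRa+ cells. All 3 differences had an adjusted p under 0.05 and none reached 2-fold. PDGFRa+ cells stood at -0.87 against satellite cells (SE 0.06, adjusted p = 0.00914) and at -0.32 against the mixed sort (SE 0.06, adjusted p = 0.0409), and satellite cells at 0.56 against the mixed sort (SE 0.06, adjusted p = 0.0109).

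Igf2r, the clearance receptor, measured 274.4 (young) and 292.1 (aged) in PDGFRa+ cells, 304.9 and 356.1 in satellite cells, and 178.2 and 188.9 in the mixed sort. The mixed sort was lowest, with no overlap. Satellite cells exceeded it by 0.78 (SE 0.06, adjusted p = 0.00523) and PDGFRa+ cells by 0.53 (SE 0.06, adjusted p = 0.0124), both under 2-fold. The satellite and PDGFRa+ values did not differ beyond the threshold (-0.25 for PDGFRa+ cells, 95% confidence interval -0.43 to -0.08, adjusted p = 0.0628).

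Among the binding proteins, Igfbp6 and Igf1 shared a pattern. Igfbp6, which prefers IGF-II, measured 13782.6 (young) and 8178.4 (aged) in PDGFRa+ cells. It measured 291.1 and 547.9 in satellite cells, and 217.9 and 188.6 in the mixed sort. PDGFRa+ cells were 26.6-fold above satellite cells (4.73, SE 0.48, adjusted p = 0.0141) and 50.6-fold above the mixed sort (5.66, SE 0.48, adjusted p = 0.00711). Of the members it had the widest differences, and the satellite cells and mixed sort did not differ beyond the spread (0.93, SE 0.48, 95% confidence interval -0.47 to 2.33, adjusted p = 0.236).

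Igfbp4, whose complexes with IGF are opened by the protease Pappa, measured 197.2 (young) and 311.5 (aged) in PDGFRa+ cells, 128.7 and 150.5 in satellite cells, and 36.7 and 79.5 in the mixed sort. The groups did not overlap. PDGFRa+ cells exceeded the mixed sort by 1.63 (SE 0.14, adjusted p = 0.00758). Satellite cells stood 0.98 above the mixed sort (SE 0.14, adjusted p = 0.0175), just under 2-fold. The difference of 0.65 between PDGFRa+ and satellite cells missed the threshold (SE 0.14, adjusted p = 0.055).

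Igfbp5, which binds extracellular matrix, measured 928.6 (young) and 886.8 (aged) in PDGFRa+ cells, 290.9 and 695.6 in satellite cells, and 146.6 and 201.6 in the mixed sort. Its order was that of Igfbp4. PDGFRa+ cells exceeded the mixed sort by 2.12 (SE 0.34, adjusted p = 0.0259), and the other differences missed the threshold: 0.83 against satellite cells (95% confidence interval -0.18 to 1.84, adjusted p = 0.19) and 1.29 between satellite cells and the mixed sort (SE 0.34, adjusted p = 0.0659).

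Igfbp3 and Igfbp7 were low in satellite cells. Igfbp3, the main carrier of IGF in blood, measured 550.5 (young) and 215 (aged) in PDGFRa+ cells, 25.3 and 28 in satellite cells, and 789.7 and 594.6 in the mixed sort. Satellite cells were lower than the mixed sort by -3.57 (SE 0.31, adjusted p = 0.00644), or 11.9-fold, and PDGFRa+ cells exceeded satellite cells by 2.60 (SE 0.31, adjusted p = 0.0179). The PDGFRa+ cells and the mixed sort did not differ beyond the threshold (-0.98, 95% confidence interval -1.89 to -0.07, adjusted p = 0.106). Between the aged satellite and aged mixed arrays, which share scanner set B, the difference was -3.38.

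Igfbp7, also called angiomodulin, binds IGFs weakly and is known from vessel walls. It measured 11172.5 (young) and 10747.6 (aged) in PDGFRa+ cells, 726.4 and 2917.5 in satellite cells, and 16691.5 and 12355.9 in the mixed sort. Satellite cells were lower than the mixed sort by -3.59 (SE 0.65, adjusted p = 0.0275), and by -2.49 within set B. PDGFRa+ cells lay 3.08 above satellite cells, with an adjusted p of 0.0502 (SE 0.65), which passed in 9 of 17 alternative settings. PDGFRa+ cells and the mixed sort did not differ beyond the spread (-0.51, 95% confidence interval -2.42 to 1.39, adjusted p = 0.648). This last value was 1.57 with the scanner set as a block. Only the satellite pair spans both sets, so the block is its age difference beyond that of the other pairs. For PDGFRa+ against satellite cells, the block and the fit without the aged satellite array gave the same value (4.12). They are thus not separate settings among the 9.

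Igfbp2, which can also bind integrins, was dim and even. It measured 22.8 (young) and 18.9 (aged) in PDGFRa+ cells, 22 and 28.7 in satellite cells, and 20 and 21 in the mixed sort. The groups overlapped, and no comparison passed (adjusted p = 0.394, 0.778 and 0.227).

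**Figure D2:**
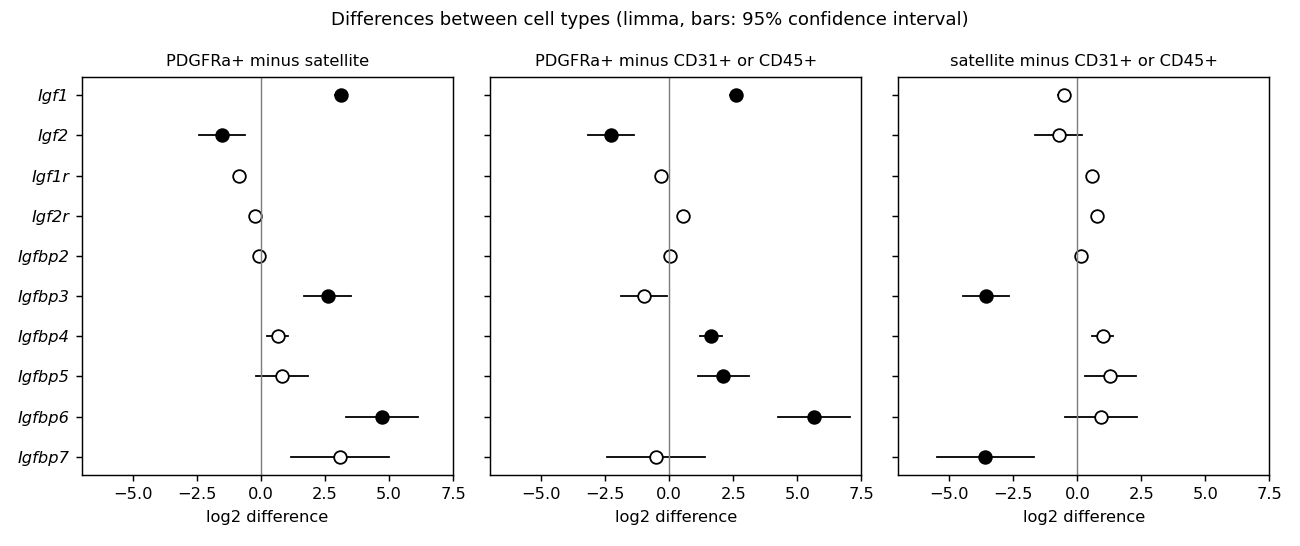
Log2 difference of each IGF gene between cell types, from the limma model over 6 arrays, with bars for the 95% confidence interval and filled points for genes called at an adjusted p under 0.05 and at least 2-fold. Igfbp6 lies farthest right in both PDGFRa+ panels (4.73 and 5.66), and Igfbp3 and Igfbp7 lie farthest left in the satellite panel (-3.57 and -3.59).

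These calls rest on few arrays. They also rest on the background taken from blank spots: with the local background of each spot, none of the 10 members was called in any comparison (68, 289 and 342 of all genes were called by limma, and 3087, 3245 and 3711 had an unadjusted p under 0.05). The Igf1 difference was then 0.015 against satellite cells and -0.18 against the mixed sort, while that of Igfbp6 was 4.37 and 5.27. For the other calls the value with that background was 1.46 for Igfbp3 and 0.32 for Igf2 in PDGFRa+ against satellite cells. It was -1.84 for Igf2, 0.68 for Igfbp4 and 0.99 for Igfbp5 in PDGFRa+ cells against the mixed sort, and -2.05 for Igfbp3 and -4.64 for Igfbp7 in satellite cells against the mixed sort. Without the young or without the aged PDGFRa+ array, limma called none of the 18372 genes between PDGFRa+ and satellite cells (5033 and 5423 had an unadjusted p under 0.05), so all 4 member calls were lost. The values stayed on the same side: Igf1 was 3.24 and 3.02, Igfbp6 4.13 and 5.34, Igfbp3 2.13 and 3.06, and Igf2 -1.99 and -1.07. The Igf2 call was also lost without any 1 of the other 4 arrays, and the Igfbp3 call without the young satellite array or either mixed array. Against the mixed sort, PDGFRa+ cells kept the Igf1 call whichever array was left out. Igfbp6 missed it without the young (5.77, adjusted p = 0.0542) or aged (5.55, adjusted p = 0.0562) mixed array, and Igf2 likewise (-2.34, adjusted p = 0.103, and -2.20, adjusted p = 0.108). Igfbp4 missed it without either PDGFRa+ array or the young mixed array, at 1.51 to 1.75 and adjusted p = 0.0555 to 0.0627. Igfbp5 missed it without either PDGFRa+ or either mixed array, at 1.71 to 2.52 and adjusted p = 0.0721 to 0.14. Between satellite cells and the mixed sort, Igfbp3 missed it without the aged mixed array (-3.48, adjusted p = 0.0505). Igfbp7 there was -3.59 without either PDGFRa+ array (adjusted p = 0.0721), -2.98 without the young and -4.21 without the aged mixed array (adjusted p = 0.137 and 0.08).

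Age was tested as a difference shared by the 3 cell types (3 aged against 3 young arrays), and 0 of the 10 members and 0% of all genes passed at an adjusted p under 0.05. Of all genes, 2025 had an unadjusted p under 0.05 in limma with cell type in the model and 287 without it, and the lowest adjusted p was 0.324. Among the members, 4 had an unadjusted p under 0.05, namely Igf1r, Igfbp4, Igf1 and Igf2r. Igf1r was 0.53 higher in aged cells (SE 0.05, 95% confidence interval 0.38 to 0.69, adjusted p = 0.324), with the aged array higher in 3 of 3 cell types. Igfbp4 was 0.54 higher (SE 0.12, 95% confidence interval 0.20 to 0.88, adjusted p = 0.358), also in 3 of 3, or in 2 of 3 with the local background (-0.026 in satellite cells). Igf1 stood at 0.21 (adjusted p = 0.414) and Igf2r at 0.19 (adjusted p = 0.382). For Igf1, Igf2r, Igf2 and Igfbp5 the aged array was also higher in 3 of 3 cell types, but not with the local background.

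Within a cell type, age was 1 array against 1 array and has no test. In aged PDGFRa+ cells, 1 member, Igfbp3, was at least 2-fold lower (-1.08 on the log2 scale, 550.5 to 215), as were 0.162% of 17876 genes, and 0 members were 2-fold higher, against 0.263%. With the local background Igfbp3 stood at 0.25. Igfbp6 was next lowest at -0.82. Igfbp4 stood at 0.70, Igf1r at 0.57, Igf1 at 0.36, Igf2r at 0.20, and the remaining 4 lay between -0.05 and 0.03. The mesenchymal progenitor markers moved beside these values: their summed intensity in aged over young PDGFRa+ cells was 0.818, with 1 of 9 higher. The macrophage and monocyte markers summed to 7.49 times the young value, from 451.6 to 3384.4, through Lyz2 (110.1 to 1904.6) and Lyz1 (89.6 to 1229.8). The other 10 markers of that list summed to 251.9 in young cells and to 0.992 times that in aged cells. Of all 12, 7 were higher in intensity, 4 were lower and Adgre1 was not above background in either array. Glial markers summed to 2.39 times the young value (4 of 4 higher), or to 1.46 times without Sox10 and Gpr37l1. Their part in the Igfbp3 and Igfbp6 values was not tested.

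In aged satellite cells all 10 members were higher than in young ones, with a median of 0.45, whereas 43.9% of all genes were higher and their median was -0.01. At least 2-fold higher were 3 members, against 1.13% of 18024 genes, and 0 were 2-fold lower, against 0.0999%. Igfbp7 stood at 1.90 (726.4 to 2917.5), Igfbp5 at 1.28 (290.9 to 695.6) and Igf2 at 1.15 (601.1 to 1278.1). Igfbp6 followed at 0.94 and Igf1r at 0.61, and the remaining 5 lay between 0.05 and 0.28. The share of all genes moved with the processing. With the authors' values, to which no offset is added, 986 of 18018 genes were at least 2-fold higher and 477 were lower. The members at least 2-fold higher were then still 3 (Igfbp7, Igfbp5 and Igf2). Markers of other cells were also higher in the aged satellite array. Summed intensity in aged over young was 3.85 for tendon markers (6 of 6 higher in intensity, and 2.36 without Thbs4 and Comp), 1.74 for pericyte and smooth muscle markers (7 of 8, and 3.75 without Acta2 and Tagln), 5.18 for macrophage and monocyte markers (12 of 12, and 1.62 without Lyz2 and Lyz1) and 1.79 for myofibre markers (8 of 8). It was 1.25 for mesenchymal progenitor markers (8 of 9) and 1.2 for endothelial markers (7 of 10). Rgs5 went from 48.3 to 276.2, Kcnj8 from 86.6 to 485.6, Tnmd from 122.6 to 297.5 and Pdgfra from 7.6 to 60.6. Of the endothelial markers, Flt1 went from 238.8 to 342.5 and Tie1 from 32.2 to 29.9, and Cdh5 was near the floor at 1.2 and 1.4. Satellite cell markers summed to 0.754 times the young value (2 of 10 higher), or to 0.95 times without Chodl and Myf5. With the local background, 4 of the 10 members were higher in aged satellite cells and Igf2, Igfbp5 and Igfbp7 were lower (-3.64, -0.18 and -2.29). All 10 were higher under the other 7 settings run. Among these, the changes of filter and the mean of all probes could not move a member's value. Each member has 1 probe and was above background on all 6 arrays. The part of other cells in the IGF values was not tested, and the scanner set cannot be told apart from age in this pair.

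In the aged mixed sort 7 members were higher and 3 lower (median 0.11, all genes -0.01 with 43.6% higher). None reached 2-fold in either direction, against 0.514% of 18090 genes higher and 0.0663% lower. Igf2 was highest at 0.72, followed by Igfbp4 at 0.68 (36.7 to 79.5), Igf1r and Igfbp5 at 0.42 each, while Igfbp3 stood at -0.33 and Igfbp7 at -0.31. In the authors' table, where no offset is added, the Igfbp4 values are more than 2-fold apart. Endothelial markers summed to 0.797 times the young value (0 of 10 higher in intensity) and pan-hematopoietic markers to 1.32 times (6 of 6 higher), 1 array against 1. Their part in the IGF values was not tested.

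**Figure D3:**
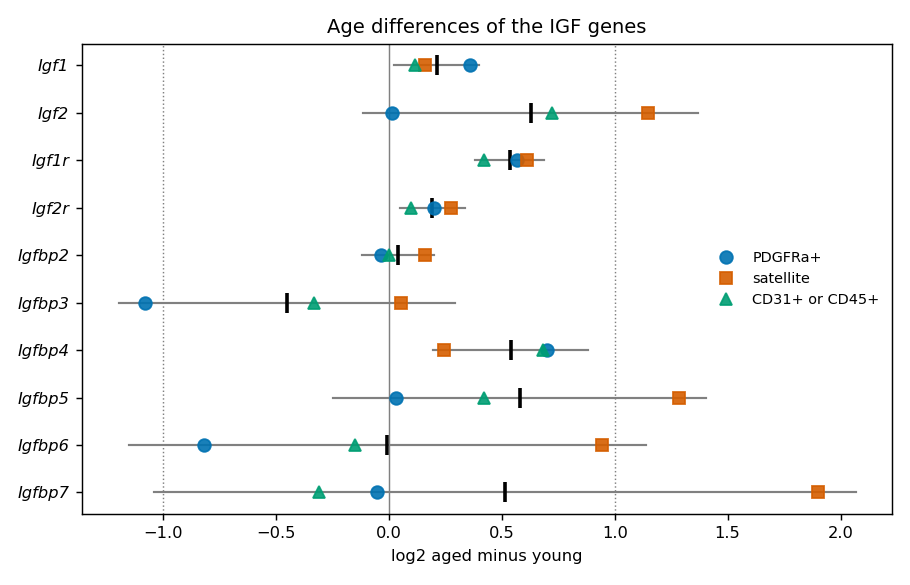
Log2 difference, aged minus young, of each IGF gene in the 3 cell types (1 array against 1), with a black tick for the shared age term, a grey bar for its 95% confidence interval and dotted lines at 2-fold. Igf1r and Igfbp4 lie right of 0 in all 3 cell types, as do Igf1, Igf2, Igf2r and Igfbp5. With the local background, of these genes only Igf1r does, and Igfbp4 is at -0.026 in satellite cells. Igfbp7 spreads from -0.31 to 1.90.

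**Figure D4:**
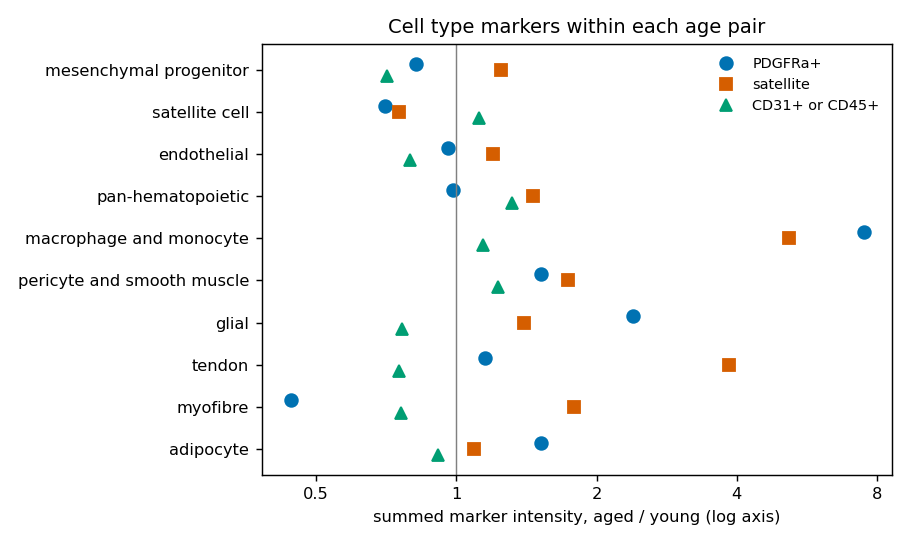
Summed intensity of each marker list in the aged array divided by that in the young array (log axis), for the 3 sorted populations. In satellite cells the macrophage (5.18) and tendon (3.85) lists lie far right of 1, and in PDGFRa+ cells the macrophage list lies at 7.49 and the myofibre list at 0.441. Without Lyz2 and Lyz1 the macrophage list is at 0.992 in PDGFRa+ cells and 1.62 in satellite cells.

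Of 12 genes tested that act on the availability of IGF ligands, 2 were called higher (4.09% of all genes) and 0 lower (3.20%) in PDGFRa+ than in satellite cells. Against the mixed sort, 2 were higher (4.70%) and 1 lower (5.40%) in PDGFRa+ cells, and 0 higher (5.12%) and 2 lower (6.57%) in satellite cells. The list's median differences were 0.19, 0.08 and -0.03. Pcsk6, a proprotein convertase, read 461.8 and 394.9 in PDGFRa+ cells and at most 10.9 elsewhere (3.58 and 3.38, SE 0.08 each, adjusted p = 0.00392 and 0.00103). Htra1, a secreted protease that cuts binding proteins, read 2340.7 and 1760.8 in PDGFRa+ cells (2.51 and 2.20, SE 0.33 each, adjusted p = 0.0209 and 0.0221). Stc1, a stanniocalcin, was bright in the mixed sort at 165.1 and 162.5, against 4.9 to 22.9 elsewhere (-2.03 for PDGFRa+ and -2.27 for satellite cells, adjusted p = 0.00673 and 0.00483). Ctsd, a lysosomal protease, was lower in satellite cells than in the mixed sort (-1.65, SE 0.19, adjusted p = 0.0105).

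Of 25 genes of receptor signalling, 0 were called higher (4.09% of all genes) and 1 lower (3.20%) in PDGFRa+ than in satellite cells. Against the mixed sort, 3 were higher (4.70%) and 2 lower (5.40%) in PDGFRa+ cells, and 4 higher (5.12%) and 1 lower (6.57%) in satellite cells. The list's medians were -0.08, 0.02 and 0.12. Irs2, an adaptor that receptors phosphorylate, was highest in satellite cells at 2676.4 and 2633.7, next in PDGFRa+ cells at 783.5 and 713, and lowest in the mixed sort at 234 and 272.5. All 3 differences were called (-1.74, 1.39 and 3.13, SE 0.08 each, adjusted p = 0.00581, 0.00377 and 0.00114). Pik3r1, a regulatory subunit of PI3-kinase, was higher in satellite cells than in the mixed sort (1.75, SE 0.24, adjusted p = 0.0153). Pik3r2, another such subunit, was higher in PDGFRa+ cells than in the mixed sort (1.58, SE 0.04, adjusted p = 0.00132). The kinase gene Akt2 was lower in the mixed sort, by 1.28 against PDGFRa+ and 1.31 against satellite cells (SE 0.14 each, adjusted p = 0.0116 and 0.00935). Socs3, a feedback inhibitor of cytokine receptors, was higher in satellite cells than in the mixed sort (1.07, SE 0.13, adjusted p = 0.0112), and Socs2, of the same family, was lower in PDGFRa+ cells than in the mixed sort (-1.03, SE 0.20, adjusted p = 0.0388).

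Of 14 FoxO factors and targets, 1 was called lower in each of the 3 comparisons (3.20, 5.40 and 6.57% of all genes) and 1, Pdk4, higher in satellite cells than in the mixed sort (5.12%). With 14 genes, these counts are near the shares of all genes. Pdk4, a kinase that restrains pyruvate use, read 238 and 176.5 in satellite cells and 23.2 to 42.4 elsewhere (-1.77 for PDGFRa+ against satellite cells and 2.08 for satellite cells against the mixed sort, SE 0.07 each, adjusted p = 0.00505 and 0.00153). Ddit4, an inhibitor of mTOR signalling, was lower in PDGFRa+ cells than in the mixed sort (-1.66, SE 0.35, adjusted p = 0.0455). It was also lower in the aged array of PDGFRa+ (498.3 to 182.4, -1.12) and satellite cells (1078.3 to 283.7, -1.75). Bnip3, a mitophagy receptor, was lower in satellite cells than in the mixed sort (-1.03, SE 0.16, adjusted p = 0.0208). In the satellite age pair 2 of the 14 were higher, with a median of -0.28.

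None of 5 growth hormone axis genes was called in any comparison. Of 8 genes of the Igf2 locus and its RNA regulators, H19 was the only call, higher in 2 comparisons (4.70 and 5.12% of all genes). H19, the imprinted RNA made next to Igf2, read 198 and 219.5 in PDGFRa+ cells, 166.2 and 172.5 in satellite cells, and 18.3 and 32.2 in the mixed sort. It exceeded the mixed sort by 2.02 in PDGFRa+ and by 1.83 in satellite cells (SE 0.06 each, adjusted p = 0.00155 and 0.0016). Igf2 itself was highest in the mixed sort.

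Of 7 partners that binding proteins attach to, 3 were called higher (4.09% of all genes) and 0 lower (3.20%) in PDGFRa+ than in satellite cells. Against the mixed sort, 3 were higher (4.70%) and 1 lower (5.40%) in PDGFRa+ cells, and 1 higher (5.12%) and 1 lower (6.57%) in satellite cells. Fn1, the matrix protein fibronectin, was higher in PDGFRa+ cells by 4.13 and 3.09 (SE 0.29 each, adjusted p = 0.00864 and 0.00842). Lrp1, an endocytic receptor for Igfbp3, was higher in PDGFRa+ cells by 2.71 and 4.06, and in satellite cells than in the mixed sort by 1.35 (SE 0.11 each, adjusted p = 0.00505, 0.00122 and 0.00571). Itga5, an integrin chain that pairs in the fibronectin receptor, was higher in PDGFRa+ cells by 1.07 and 1.13 (SE 0.11 each, adjusted p = 0.0143 and 0.00906). Cd93, a receptor for Igfbp7, was bright in the mixed sort instead. It read 3228.1 and 2124.7 in the mixed sort and 15.8 to 45.6 elsewhere (-5.85 and -5.20, SE 0.22 each, adjusted p = 0.0019 and 0.00203). Vtn, the matrix protein vitronectin, was not called, and stood at 1.16 in the satellite age pair, where Fn1 stood at 1.60. None of the genes of these 6 lists passed the shared age test.

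**Figure D5:**
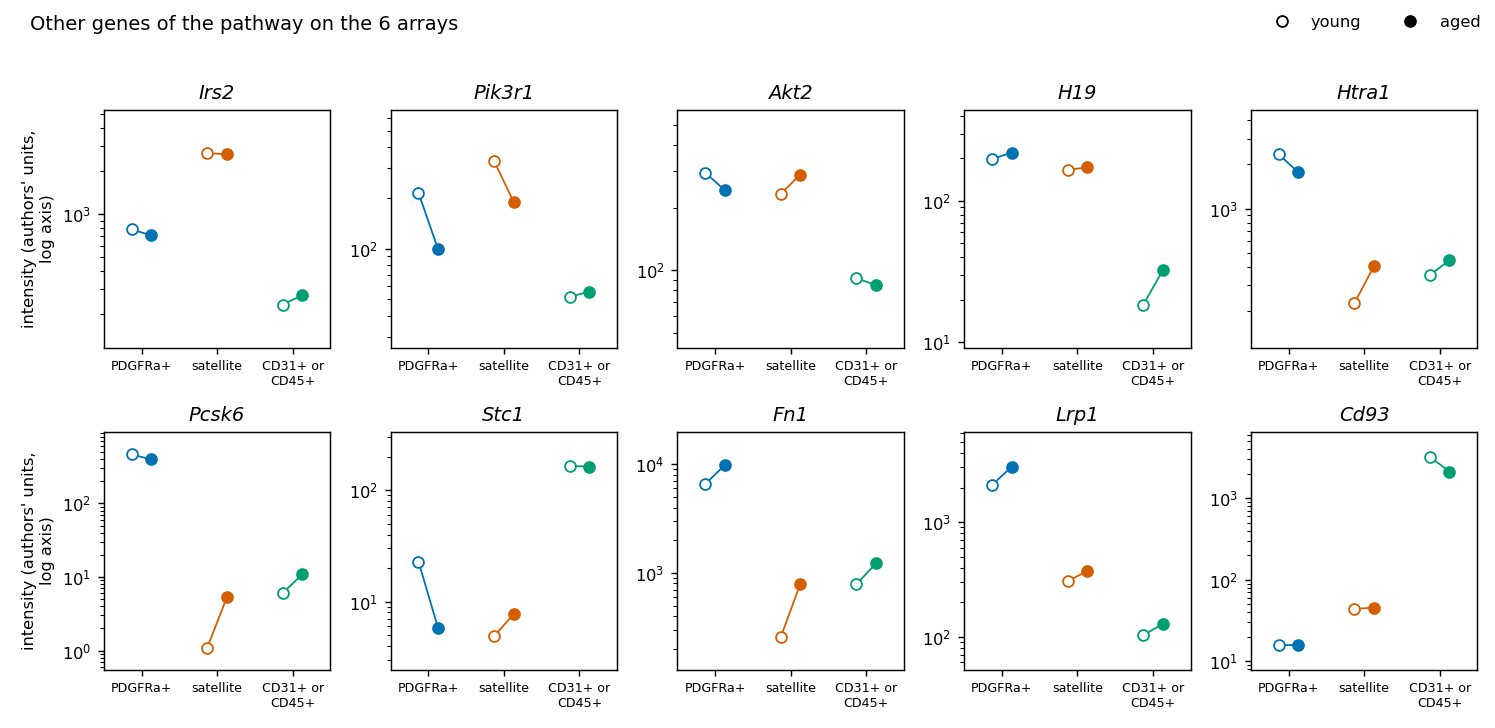
Intensity of 10 other genes of the pathway (authors' units, log axis, a separate scale in each panel), drawn as for the IGF genes with open circles for young and filled circles for aged arrays. Irs2 is highest in satellite cells (2676.4 and 2633.7), and Cd93 is highest in the mixed sort (3228.1 and 2124.7).

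Over the 6 arrays, the pairs of members most alike were Igf1 and Igfbp6 (Pearson r = 0.94), Igfbp3 and Igfbp7 (0.92) and Igfbp4 and Igfbp5 (0.91). These are descriptions over 6 points that form 3 pairs of the same cell type, so any gene with the same cell type order scores high. Among 4159 other genes that ranged at least 2-fold, Igf1 was most like Sulf2 (0.9995), Fam161a (0.998) and Penk (0.998). Igfbp6 was most like Twist1 (0.999), Dclk1 (0.999) and Mmp23 (0.998). Igfbp3 was most like Il16 (0.998), Fmo1 (0.997) and Cldn15 (0.994), and Igfbp7 most like Pcdh19 (0.996), Rb1 (0.994) and Mustn1 (0.992). The nearest genes to Igf2 were Ahr (0.995), Dusp5 (0.987) and Ephx3 (0.985), to Igfbp4 Arf4 (0.994), Slco2b1 (0.990) and Prdx4 (0.986), and to Igfbp5 Ms4a4d (0.990), Srxn1 (0.990) and BC034090 (0.988). For the receptors, Igf1r was nearest to Cdk1 (0.990), Gm7713 (0.976) and Pdgfa (0.975), and Igf2r to Tuft1 (0.997), Rps24 (0.991) and Gstp2 (0.984). Igfbp2, nearest to Cyp26a1 (0.994), Id4 (0.976) and Dnajb9 (0.974), had a log2 range of only 0.21.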

How the data were processed

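RNA was amplified with amino allyl nucleotides and coupled to Cy5, per the labels' protocols. Per the file headers, each scanner file holds the median intensity of 27456 spots at 635 nm, merged from 3 gains. The table of values that the authors deposited gives intensity on a linear scale, with a median of 25 on each array. It was recovered from the scanner values, within 0.0948 units, as the spot median less the trimmed mean (5%) of 2736 blank spots. A genome build is not given in the sources used here.

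Here, R 4.3.3 and limma 3.58.1 were used: normexp with the blank-spot background and an offset of 50, log2 and quantile normalisation. The local background was not used, because it followed the spot itself (r of logs 0.963 to 0.981). Of 23473 probes, 20690 have 1 gene symbol, 0 several and 2783 none, and 20556 were updated by Entrez ID. The brightest probe stood for a gene. Genes above background on at least 2 of 6 arrays were tested (18372). The model had cell type and age over all arrays (2 residual degrees of freedom), with empirical Bayes moderation and Benjamini-Hochberg adjustment over all genes. Age pairs were compared by fold among genes above background on the brighter array. The steps were tested on simulated data. Precision is limited by the number of arrays.

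The members and gene lists were chosen with earlier results of these data known. The text names all members, up to 6 genes per pathway list that were called or at least 2-fold by age, and the 3 genes most like each member. Marker genes and genes next to a member are named besides. Alternatives covered background, offset, the authors' table, scaling, filter, probes, model, variance, scanner set and leaving out each array.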

Additional observations from a re-analysis of the deposited data

Results flagged for a closer look

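For 4 members the aged minus young log2 difference pointed in opposite directions in different cell types, each from 1 array against 1. The difference between cell types was not tested, since there are no replicates. Igfbp7 was 1.90 in satellite cells, -0.053 in PDGFRa+ cells and -0.31 in CD31+ or CD45+ cells. Igfbp6 was 0.94 in satellite cells, -0.82 in PDGFRa+ cells and -0.15 in CD31+ or CD45+ cells. Igfbp3 was -1.08 in PDGFRa+ cells, -0.33 in CD31+ or CD45+ cells and 0.053 in satellite cells. Igfbp2, a dim gene, was -0.036 in PDGFRa+ cells, 0.16 in satellite cells and 0.0018 in CD31+ or CD45+ cells.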

How the results depend on the processing

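Of the changes made to the processing, the local background around each spot moved the results most. With it limma called 0 members in each of the 3 cell type comparisons. Of all genes, 68, 289 and 342 were called, against 1339, 1857 and 2147, and 3087, 3245 and 3711 had an unadjusted p under 0.05 in limma. By age, 3 members were at least 2-fold apart in PDGFRa+ cells, as were 1084 of 17668 genes (76 of 17876 with the blank spots). In satellite cells 4 members were, as were 1266 of 17724 genes (221 of 18024 with the blank spots). In CD31+ or CD45+ cells 1 member was, as were 927 of 17912 genes (105 of 18090 with the blank spots). The log2 difference between PDGFRa+ and satellite cells turned to 0.32 for Igf2 and 0.60 for Igf2r, that between PDGFRa+ and CD31+ or CD45+ cells to -0.18 for Igf1 and -0.058 for Igfbp2, and that between satellite and CD31+ or CD45+ cells to -0.046 for Igf2r. The shared age difference turned to -0.52 for Igf1, -1.25 for Igf2, -0.18 for Igf2r, -0.82 for Igfbp5, 1.05 for Igfbp6 and -1.54 for Igfbp7. The age pairs turned to 0.25 for Igfbp3 in PDGFRa+ cells and to -3.64, -0.18 and -2.29 for Igf2, Igfbp5 and Igfbp7 in satellite cells. With this background the median coefficient of variation among 48 positive controls was 30.7 to 53.7%, against 9.1 to 11.4% with the blank spots.

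Between satellite and CD31+ or CD45+ cells, 4 members were called with no background correction, an offset of 10 or the authors' own values, adding Igfbp4 and Igfbp5. Over all genes the 3 comparisons called 1926, 2617 and 2986 with no background correction, 2213, 2945 and 3382 at the offset of 10, 3151, 4003 and 4714 with the authors' values, and 1312, 835 and 1886 with the scanner set as a block. The authors' table also gave 1 member at least 2-fold apart by age in CD31+ or CD45+ cells, Igfbp4, beside 787 of 18040 genes. The Igf2 call between PDGFRa+ and satellite cells was lost in 9 of 17 alternatives, including no filter on dim genes (adjusted p = 0.0521) and no age term (adjusted p = 0.0859), and reversed in 1. The shared age difference of Igfbp6, -0.01, was 0.0036 without background correction, 0.0062 at an offset of 10 and 0.064 under median scaling. With the scanner set as a block, Igfbp7 between PDGFRa+ and CD31+ or CD45+ cells was 1.57, and the shared age difference was -0.017 for Igfbp2 and -0.18 for Igfbp7. The cause of these changes was not tested.

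Leaving out 1 array in turn, the members called numbered 0 to 5 between PDGFRa+ and satellite cells, 1 to 5 between PDGFRa+ and CD31+ or CD45+ cells and 0 to 3 between satellite and CD31+ or CD45+ cells. A lone array is then assumed to vary like the other cell types. The number called among all genes also changed with the array left out, so the member counts alone do not set the members apart. The difference between PDGFRa+ and CD31+ or CD45+ cells ranged from -0.025 to 0.093 for Igfbp2 and from -1.13 to 0.10 for Igfbp7. The shared age difference ranged from -0.017 to 0.081 for Igfbp2, from -0.48 to 0.40 for Igfbp6 and from -0.18 to 0.92 for Igfbp7. No member passed the shared age test under any alternative run, and no other gene did either, so this does not set the members apart. Igfbp2 is dim, which limits what its values can show.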

Other observations

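In the RefSeq gene order of mouse (GRCm38.p6), Igfbp2 lies next to Igfbp5, Igfbp3 next to Igfbp1, and Igf2 between H19 and Ins2. Igfbp1, the binding protein made mainly by liver and not among the 10 members, read 11.3, 28.2 and 7.1 in young PDGFRa+, satellite and CD31+ or CD45+ cells and 12.6, 23.9 and 5.4 in aged ones. Igfbp1 was thus brightest in satellite cells, where its neighbour Igfbp3 was dimmest. However, Igfbp1 was dim and was called in no comparison. It stood at -0.37 for PDGFRa+ against satellite cells, 0.20 for PDGFRa+ against CD31+ or CD45+ cells and 0.58 for satellite against CD31+ or CD45+ cells. Its order is a description only.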
